A study of Drosophila melanogaster with 13 samples.

Results

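The genes described here are 34 muscle genes of Drosophila melanogaster, named by their FlyBase symbols and taken as a list: motor and filament proteins of the sarcomere, giant elastic proteins, Z disc proteins, and the pump and channel that move calcium. All 34 were found among 17370 genes counted in adult heads. By a filter on low counts, 32 of them had enough reads to be tested, and TpnC4 and fln did not.

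A striated muscle fibre shortens when myosin heads on the thick filament pull on the actin of the thin filament. Calcium released into the cell by the ryanodine receptor binds troponin C, which shifts troponin and tropomyosin along the thin filament and lets myosin bind, and the SERCA pump takes the calcium back. In Drosophila several of these proteins come from families of separate genes used by different muscles: Act88F, TpnC4 and fln (flightin) are known for the indirect flight muscle of the thorax, while Act57B and Act87E are known from larval and other adult muscles. Muscles of the fly head move the proboscis and the antennae, and in a freshly emerged fly also the ptilinum, the sac that pushes open the pupal case.

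Messenger RNA of heads was sequenced in 12 RNA samples, 1 for each combination of larval diet, sex and strain, each a pool of 70 to 80 heads from flies 2 to 6 h old. The diets were HPS, with a protein to carbohydrate ratio of 0.43 (high protein, low sugar), and LPS, with a ratio of 0.1 (low protein, high sugar), and the question is how the larval diet bears on the adult head. Each strain (SD2, SD3 or SD6) is an isofemale line, bred from 1 wild female, and every group was reared at 25 °C in a cycle of 12 h light and 12 h dark with 40 larvae per vial; each strain and diet had 10 vials. Females and males of a strain and diet shared their vials, each pool counts as 1 replicate, and the sexes and diets had 6 samples each and the strains 4. The male LPS RNA of SD2 was read in 2 libraries, whose counts were added. In such bulk samples fewer muscle cells and less muscle RNA per cell cannot be told apart.

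Libraries held 7.84 M to 25.3 M reads in genes (M, 1e6 reads). Taken as the floor of detection, 3 reads stood for 0.119 to 0.382 CPM (counts per M gene reads), which covers counting error only. The libraries labelled male LPS SD3 and male LPS SD6 went against their strain labels, since SD3 and SD6 differed in 0 of 10026 genes tested (0%) with them and in 2095 of 10373 (20.2%) without them (edgeR's quasi-likelihood test, adjusted p below 0.05). Members showed this too: TpnC73F stood at 61.2 to 78.6 CPM in the other SD3 samples and at 17.6 to 37.7 CPM in the other SD6 samples, but the male LPS library of the SD3 label had 21.5 CPM and that of the SD6 label 76.7 CPM. Results are given as labelled and again without these 2 libraries. A further 2 libraries, both of SD2 males, came from a second sequencing run that held no female and no other strain.

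Muscle markers were abundant in the heads, and of the 3 flight muscle markers TpnC4 and fln lay near the floor. The 5 muscle markers Mhc, Mlc1, Mlc2, up and wupA, all of them members, summed to 10679 to 18690 CPM per sample, against 2081 to 3286 CPM for 4 neuronal markers. Of the flight muscle genes, TpnC4 had 0 to 4 reads per sample (12 in all), fln had 1 to 7 and Act88F 31 to 102. The body genes Ubx, abd-A and Abd-B, which pattern the thorax and abdomen, had at most 8, 2 and 2 reads in any sample, while of the other 2 genes on that list Antp had 8 to 36 reads and tup 160 to 592 reads per sample. Together the 34 genes took 3.63% to 5.15% of gene reads in the 6 female samples and 3.22% to 4.15% in the 6 male samples. The lowest female pool was LPS SD6 and the highest male pool was HPS SD3, and the ranges of the sexes overlapped.

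Compared per kilobase of exon, the members' levels spanned several orders of magnitude. Act57B was highest at 3447 ± 918 CPM per kb (mean ± SD, n = 12), and Mlc2, the regulatory light chain of myosin, followed at 2077 ± 375. Each of the pair stood above the next gene in all 12 samples. From there the order was close: Mlc1 (the essential light chain) at 1081 ± 228, Mp20 (a calponin-like protein) at 954 ± 198, TpnC25D at 937 ± 221 and Act87E at 771 ± 260.4 differed from their neighbours by less than the larger of the 2 SDs, and changed order between samples. The troponin T gene up (676 ± 153), Mhc (584 ± 136), the troponin I gene wupA (534 ± 99.6) and SERCA (527 ± 87.0) formed the next stretch, where neighbouring means again lay within the larger SD, though up stood above Mhc in all 12 samples. Below them came Tm2 (433 ± 79.4), Zasp66 (406 ± 123), tmod (306 ± 64.3), Prm (257 ± 51.8) and Mf (235 ± 42.7). Mlp60A, TpnC47D, Mlp84B, Actn and Tm1 lay between 122 and 175 CPM per kb, and Act79B, TpnC73F, Unc-89 and Zasp52 between 29.4 and 64.3.

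Levels per kilobase were lowest among tested members for the Z disc gene Zasp67 (2.31 ± 1.24 CPM per kb) and the actin Act88F (3.09 ± 1.78), and most giant genes were also low. The projectin gene bt stood at 15.6 ± 5.09 CPM per kb, RyR at 10.8 ± 1.94, the kettin gene sls at 7.61 ± 1.66 and Msp300 at 4.39 ± 0.795 (n = 12). These values divide by the joined exons of all annotated isoforms, which understates genes whose long exons are used in few transcripts. Strn-Mlck, the stretchin and myosin light chain kinase gene, was the steadiest member, at 6.37 ± 0.508 with a coefficient of variation of 7.98%, while TpnC47D varied by 68.4% and TpnC73F by 63.3%.

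Within the muscle actins Act57B (FBgn0000044, chromosome arm 2R) made up 73.8% to 86.8% of the summed CPM per kb, with a mean of 80.3% ± 4.37 (SD, n = 12). Act87E (FBgn0000046, 3R) held 18.0% ± 3.96, Act79B (FBgn0000045, 3L), known from leg and other tubular muscles, 1.63% ± 0.99, and Act88F (FBgn0000047, 3R) 0.08% ± 0.04. The order Act57B, Act87E, Act79B, Act88F held in all 12 samples, and the ratio of Act57B to Act87E ran from 3.04 to 7.32. The cytoplasmic actin Act5C, present in every cell type, stood between 541 and 959 CPM per kb and Act42A at 94.0 ± 17.3. The actin genes are near-identical in their coding parts and only uniquely mapped reads were counted, so the levels between them are uncertain.

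Within the troponin C genes TpnC25D (FBgn0031692, 2L) held 61.4% to 94.3% of the summed CPM per kb, with a mean of 82.0% ± 10.2 (SD, n = 12). TpnC47D (FBgn0010423, 2R) held 13.4% ± 8.77 and TpnC73F (FBgn0010424, 3L), both known from larval body wall muscle, 3.26% ± 1.87. TpnC41C (FBgn0013348, 2R), an adult isoform, held 1.30% ± 0.30, and TpnC4 (FBgn0033027, 2R) at most 0.02%. TpnC25D led in every sample, but the gap moved: its ratio to TpnC47D was 1.99 in male HPS SD3 heads and 38.6 in female LPS SD2 heads.

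**Figure D1:**
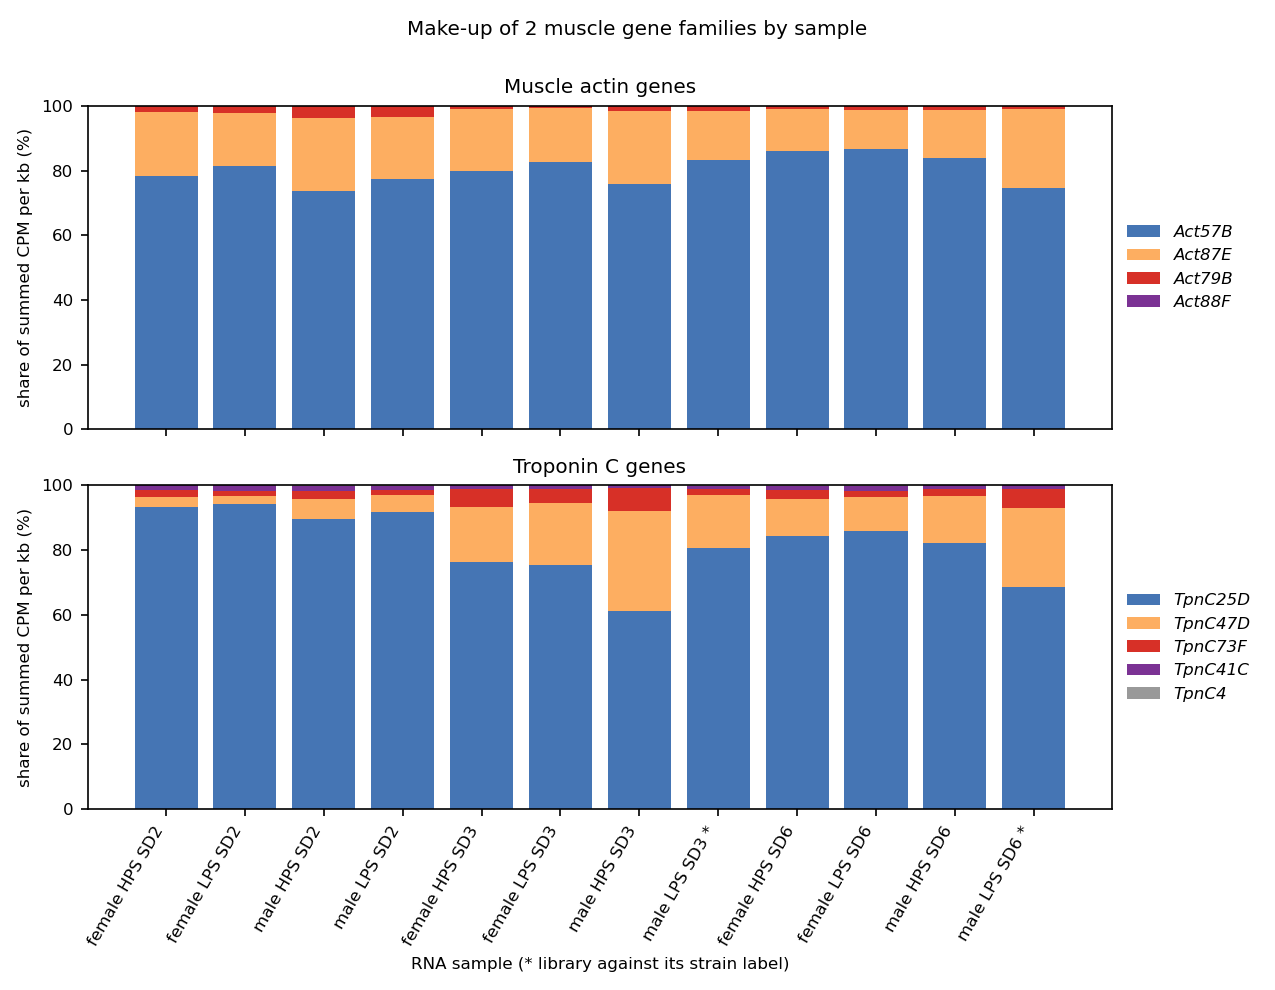
Share of each gene in the summed CPM per kb (percent, vertical axis) of the muscle actins (top) and of the troponin C genes (bottom) in the 12 RNA samples (horizontal axis, grouped by labelled strain; stars mark the 2 libraries that go against their strain label). Act57B leads the actins at 73.8% to 86.8% in all samples, while TpnC47D takes 2.44% to 6.27% of troponin C in SD2 and 10.4% to 30.8% in the other samples.

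Several muscle genes had lower levels in male than in female heads. As labelled, 8 of 32 tested members passed the threshold for sex and all 8 were lower in males, beside 305 of all 10026 genes tested (3.04%), of which 218 (2.17%) were lower in males. They were the thick filament genes Mhc, Prm and bt, the thin filament genes Act57B and Tm2, the troponin C gene TpnC41C, the LIM protein gene Mlp84B and the calcium channel gene RyR. Over the members 27 of 32 log2 fold changes (male minus female) were negative, with a median of −0.37, while over all genes 46.9% were negative and the median was 0.01. The male pool was the lower in all 6 pairs of the same strain and diet for 8 members (576 of all genes, 5.75%) and in 5 pairs for a further 15 (1226 of all genes, 12.2%). With the strain labels of the 2 libraries exchanged, males were lower in all 6 pairs for 17 members (860 of all genes, 8.58%).

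**Figure D2:**
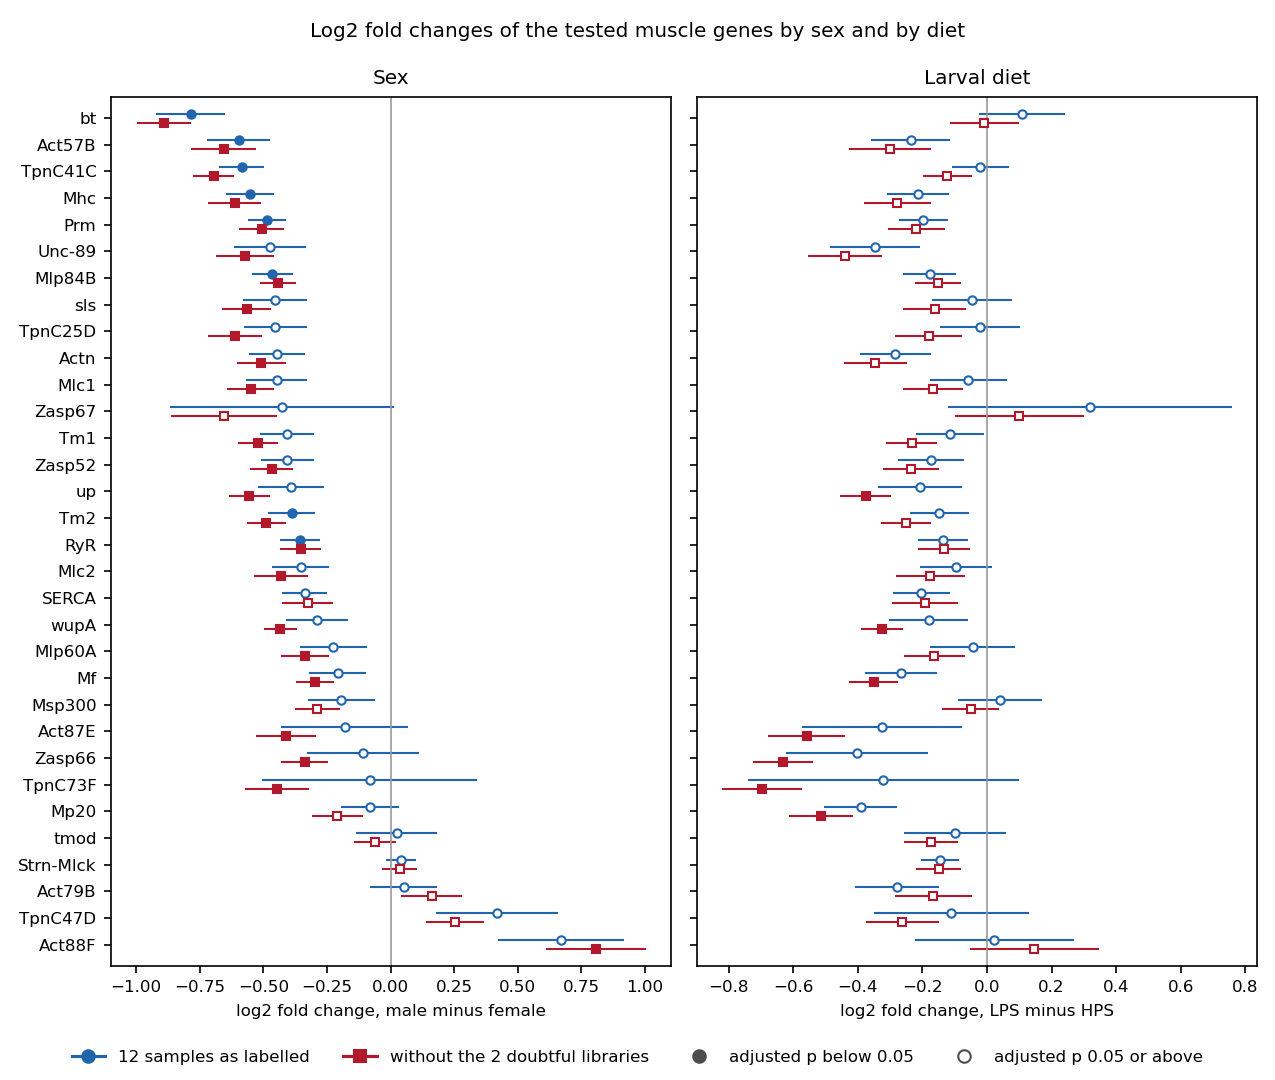
Log2 fold changes of the 32 tested members (vertical axis) by sex (left, male minus female) and by larval diet (right, LPS minus HPS), with bars of 1 standard error, from edgeR; circles are the 12 samples as labelled, squares leave out the 2 libraries, and filled symbols have an adjusted p below 0.05. By sex 27 of 32 circles lie left of 0 with a median of −0.37, and by diet 28 of 32 do with a median of −0.16 and none filled.

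In the thick filament, the motor gene Mhc (FBgn0264695, 2L) ran from 4857 CPM through a median of 6451 to 7036 CPM in females, and from 3554 through 4281 to 5175 CPM in males. Males were lower in all 6 pairs, and the sexes overlapped only through the female LPS SD6 pool and the male HPS SD3 pool. The log2 fold change was −0.55 ± 0.09, or 1.47-fold lower in males (adjusted p = 0.0124, edgeR). Prm, the paramyosin that fills the core of insect thick filaments, ran from 1388 through 1597 to 1823 CPM in females and from 973 through 1121 to 1404 CPM in males (−0.49 ± 0.08, edgeR adjusted p = 0.00801). Male HPS SD3 was the highest male for Prm and overlapped with female LPS SD6. The light chains Mlc1 (−0.45 ± 0.12, edgeR adjusted p = 0.0795) and Mlc2 (−0.35 ± 0.11, edgeR adjusted p = 0.133) and the myofilin gene Mf (−0.21 ± 0.11) did not pass.

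Among the giant proteins, bt (FBgn0005666, chromosome 4), whose product projectin ties thick filaments to the Z disc, showed the widest difference by sex. Its female samples ran from 426 through 573 to 648 CPM and its male samples from 263 through 318 to 419 CPM. No male sample reached a female one, which held for no other member and for 132 of all tested genes (1.32%). The log2 fold change was −0.79 ± 0.14, or 1.72-fold lower in males (edgeR adjusted p = 0.0125). The kettin gene sls (−0.46 ± 0.13, edgeR adjusted p = 0.0879) and the obscurin gene Unc-89 (−0.48 ± 0.14, edgeR adjusted p = 0.111), which builds the M line, had similar values but did not pass as labelled. Msp300, a nesprin that holds nuclei in place, stood at −0.19 ± 0.13.

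In the thin filament Act57B ran from 5311 through 7529 to 7926 CPM in females and from 3631 through 4781 to 6630.2 CPM in males (−0.60 ± 0.12, edgeR adjusted p = 0.0268). Males were lower in all 6 pairs, with overlap again through female LPS SD6 and male HPS SD3. Tm2, a muscle tropomyosin, ran from 1042 through 1329 to 1437 CPM in females and from 823 through 962 to 1149.8 CPM in males (−0.39 ± 0.09, edgeR adjusted p = 0.0495). It passed narrowly, with males lower in 5 of 6 pairs. The other tropomyosin gene Tm1 (−0.41 ± 0.10), up (−0.39 ± 0.13) and wupA (−0.29 ± 0.12) did not pass. The tropomodulin gene tmod, which caps the pointed end of the thin filament, showed 0.02 ± 0.16 as labelled, with a sign that turned to −0.06 without the 2 libraries.

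The actin isoforms differed from each other in their values by sex. Act87E stood at −0.18 ± 0.25 as labelled, a sign that turned to 0.09 without the SD2 males, and Act79B at 0.05 ± 0.13. Act88F, the flight muscle actin, was the member with the largest positive value, 0.67 ± 0.25 (edgeR adjusted p = 0.197): it ran from 2.09 through 3.44 to 5.59 CPM in females and from 2.94 through 5.40 to 12.2 CPM in males. Its level was low, at 31 to 102 reads per sample, and the sexes overlapped. The cytoplasmic actins were at 0.18 ± 0.11 (Act5C) and −0.07 ± 0.12 (Act42A), and neither passed. Differences between isoforms in their response to sex were not tested.

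Of the troponin C genes TpnC41C ran from 25.2 through 32.9 to 41.6 CPM in females and from 18.5 through 22.6 to 25.2 CPM in males. Males were lower in all 6 pairs, and the lowest female sample, LPS SD3, fell inside the male range by a small margin. The log2 fold change was −0.58 ± 0.09 (edgeR adjusted p = 0.00651). TpnC25D, the main isoform, had −0.45 ± 0.12 (edgeR adjusted p = 0.0854). TpnC47D had 0.42 ± 0.24 and TpnC73F −0.08 ± 0.42, whose sign turned to 0.19 without the SD2 males.

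At the Z disc, Mlp84B, a LIM protein of muscle, ran from 439.6 through 534 to 554 CPM in females and from 309.7 through 365 to 460.4 CPM in males. Males were lower in all 6 pairs, and male HPS SD3 alone reached the female range (−0.46 ± 0.08, edgeR adjusted p = 0.0138). Actn, the α-actinin that crosslinks thin filaments, had −0.45 ± 0.11 (edgeR adjusted p = 0.0587) and Zasp52, an α-actinin partner, −0.41 ± 0.10 (edgeR adjusted p = 0.0665). Actn overlaps usp on the same strand, so reads that fall in both genes can be set aside as ambiguous rather than counted. The other LIM protein gene Mlp60A (−0.23 ± 0.13) and Zasp67 (−0.43 ± 0.44) did not pass, and Zasp66 stood at −0.11 ± 0.22, turning to 0.04 without the SD2 males.

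In calcium handling, RyR, the channel that releases calcium from the sarcoplasmic reticulum, ran from 159.7 through 200.4 to 231 CPM in females and from 139 through 151 to 189.8 CPM in males (−0.36 ± 0.08, edgeR adjusted p = 0.0377). Males were lower in all 6 pairs, and the sexes overlapped through male HPS SD3. SERCA, the pump that returns the calcium, ran from 4168 through 4855 to 5432 CPM in females and from 3106 through 3713 to 4833 CPM in males. It was also lower in males in all 6 pairs, and did not pass (−0.34 ± 0.09, edgeR adjusted p = 0.0754). Strn-Mlck (0.04 ± 0.06) and Mp20 (−0.08 ± 0.11) lay near 0.

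**Figure D3:**
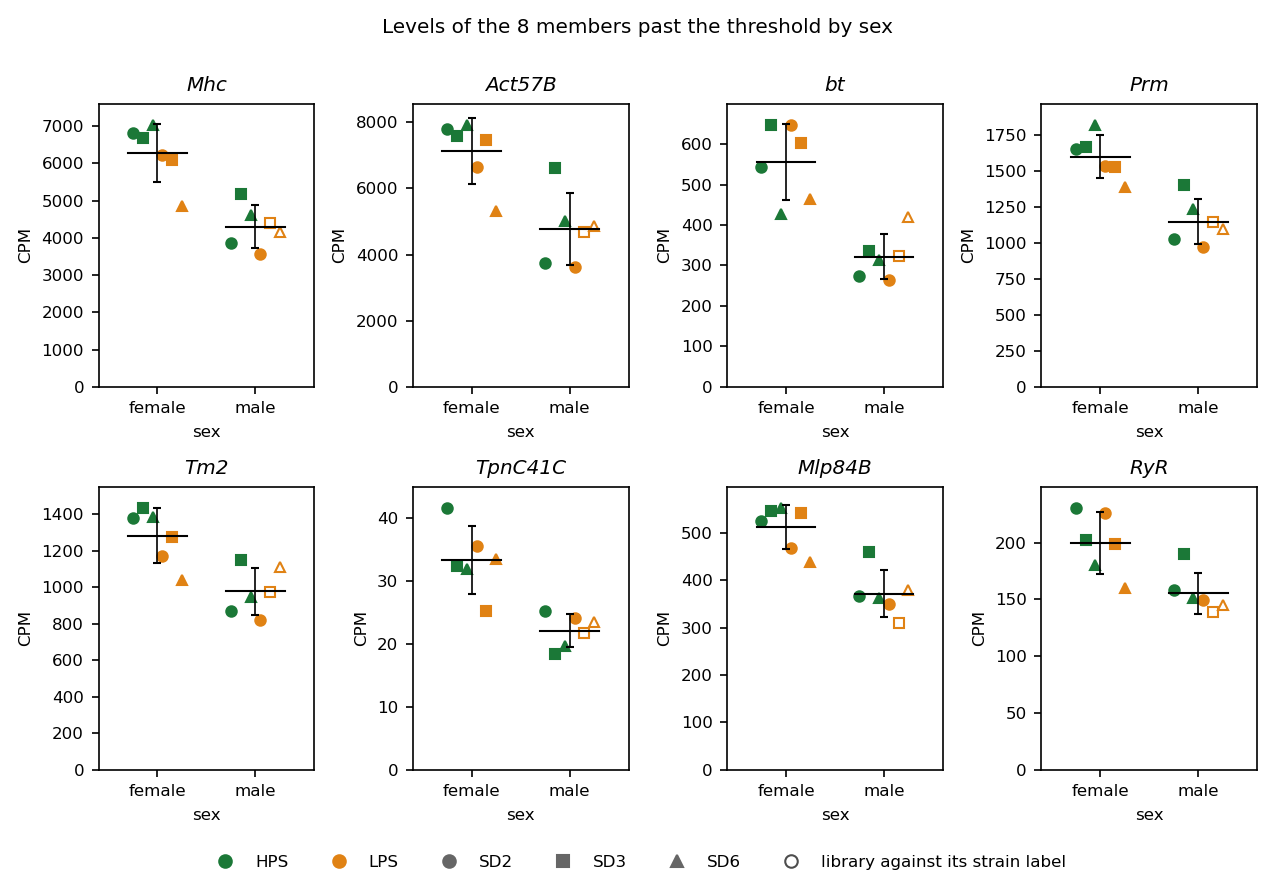
Levels in CPM (vertical axes, starting at 0) of the 8 members past the threshold by sex, in 6 female and 6 male samples each; colour gives the diet, shape the labelled strain, open symbols the 2 libraries that go against their strain label, and the black line and bar the mean ± SD. The male SD2 pools are among the lowest points for Mhc (3847 and 3554 CPM) and bt (274 and 263 CPM), and bt is the member whose sexes do not overlap.

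The count by sex depended on which libraries were used. Both libraries of doubtful strain are male LPS pools. With them left out SD2 gave the only LPS male, and SD2 pools weighed more among the males. When the 2 libraries of doubtful strain were left out 24 members passed, 23 of them lower in males, beside 801 of 10373 genes (7.72%), of which 511 (4.93%) were lower in males, and the median of the members was −0.44. The members added included sls (−0.57 ± 0.10), Unc-89 (−0.57 ± 0.11), TpnC25D (−0.61 ± 0.11), up (−0.56 ± 0.08), wupA (−0.43 ± 0.06) and Act87E (−0.41 ± 0.12). Act88F passed in the other direction at 0.81 ± 0.20 (edgeR adjusted p = 0.0257), with a male value above the female one in 5 of 6 pairs as labelled. With the strain labels of the 2 libraries exchanged 21 passed, 19 lower in males, beside 1127 genes (11.2%).

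In the larger sequencing run alone, which keeps the male LPS SD2 RNA through its library there and loses male HPS SD2, 3 members passed by sex (Mhc, Prm and TpnC41C), beside 118 of 10126 genes (1.17%), and the median was −0.32 with 26 negative. There bt stood at −0.74 ± 0.15 and Mlp84B at −0.46 ± 0.09, both with an adjusted p of 0.0509 in edgeR. Without both SD2 male samples, 0 of 32 members passed by sex in edgeR, 13 had an unadjusted p below 0.05, and the median was −0.24 with 24 negative; among all genes 40 of 10104 passed (0.396%). In that fit Mhc stood at −0.42 ± 0.10 (edgeR adjusted p = 0.168), bt at −0.60 ± 0.15 (edgeR adjusted p = 0.193) and TpnC41C at −0.55 ± 0.12 (edgeR adjusted p = 0.147). With the strain labels exchanged as well, 8 passed, namely Mhc, Act57B, bt, sls, Prm, TpnC41C, Mlp84B and Zasp52, beside 475 genes (4.7%). The male LPS SD2 RNA was sequenced in both runs, and with only its library of the larger or only its library of the smaller run 7 and 8 members passed. Between these 2 libraries the 32 tested members differed by a median absolute log2 value of 0.11. For the fits with 1 of them, and for those below that left 5 members, the share of all genes passing is not given here. Leaving out any 1 of 7 samples (male HPS SD2 or SD6, female HPS SD2 or SD6, male LPS SD2, female LPS SD2 or SD3) left 5 members, Mhc, bt, Prm, TpnC41C and Mlp84B, while leaving out the library labelled male LPS SD6 gave 22, beside 559 of 10155 genes (5.5%).

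Markers of other cell types moved with sex as well. All 3 haemocyte markers were lower in males: Hml at −0.77 ± 0.11 (edgeR adjusted p = 0.00578), Ppn at −0.60 ± 0.10 (edgeR adjusted p = 0.0116) and NimC1 at −0.44 ± 0.10 (edgeR adjusted p = 0.0399). Their sum ran from 115.1 to 155 CPM in females and from 66.7 to 111 CPM in males, without overlap. The 4 fat body markers summed to 2781 to 4677 CPM in females and 807 to 1533 CPM in males, mostly through the yolk protein gene Yp1. The 4 neuronal markers (2081 to 2486 and 2262 to 3286 CPM), the 3 photoreceptor markers (21364 to 27911 and 23216 to 31109 CPM), the 3 markers of cuticle and epidermis (796 to 1374 and 727 to 1382 CPM) and the 4 glial markers (2799 to 3549 and 3155 to 4518 CPM) overlapped between females and males. No neuronal, glial, photoreceptor or cuticle marker passed by sex in edgeR as labelled, and no marker of these lists was at 0 in all samples. With the 2 libraries left out, where 24 members passed, the 3 haemocyte markers passed again, and so did the cuticle gene Cpr49Ae (−0.77 ± 0.09), yellow (−1.36 ± 0.37), the fat body genes apolpp (−0.67 ± 0.13) and FASN1 (−0.32 ± 0.08), besides Yp1, and the glial gene repo (0.29 ± 0.07, higher in males). DESeq2 on all samples called the glial gene Gs2 as higher in males (0.29 ± 0.07). With the strain labels exchanged, Gs2 (0.29 ± 0.07) and Eaat1 (0.18 ± 0.05) passed in edgeR as higher in males, while repo and moody did not pass. In that fit the 3 haemocyte markers, Cpr49Ae, yellow, apolpp, FASN1 and Yp1 passed as lower in males. The part of these markers in the muscle values was not tested.

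Between strains, Act79B and TpnC47D set SD2 apart. As labelled these 2 of 32 members passed the joint test of strain, beside 922 of 10026 genes (9.2%). When the 2 libraries were left out 15 members passed, beside 3645 of 10373 (35.1%), the background against which that count is read. These libraries were doubted because of their SD3 and SD6 values. Strain differences with them left out or exchanged therefore follow in part from that choice, and their p-values add no independent support. In the larger sequencing run alone the same 2 members passed, beside 407 of 10126 genes (4.02%), while without both SD2 male samples 0 members passed in edgeR (3 at an unadjusted p below 0.05), beside 87 of 10104 genes (0.861%). With the strain labels exchanged 20 members passed (4580 of all genes, 45.7%), and 18 with the SD2 males left out as well (3240 of 10104 genes, 32.1%).

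Act79B stood at 169, 162, 178 and 147 CPM in the 4 SD2 samples (female HPS, female LPS, male HPS and male LPS). It stood at 70.9, 64.6, 119 and 74.6 CPM in the samples labelled SD3 and at 71.9, 72.2, 72.2 and 48.4 CPM in those labelled SD6. All SD2 samples lay above all others, and SD3 and SD6 overlapped. The joint test had an adjusted p of 0.00115 as labelled, and SD6 minus SD2 was −1.30 ± 0.16 and SD3 minus SD2 −1.01 ± 0.16 on the log2 scale (edgeR). In the larger run alone they were −1.33 ± 0.18 and −1.04 ± 0.19 (joint edgeR adjusted p = 0.00843). Without both SD2 males they were −1.37 ± 0.23 and −1.09 ± 0.24, and the joint test no longer passed (edgeR adjusted p = 0.0790).

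TpnC47D went the other way, with 36.9, 22.2, 39.5 and 37.6 CPM in SD2. In the samples labelled SD3 it was at 190.1, 199, 261 and 140.0 CPM, and in those labelled SD6 at 116, 79.7, 105 and 237 CPM. Every SD2 sample was below every other sample. With the 2 libraries left out SD3 (190.1 to 261 CPM, n = 3) also lay above SD6 (79.7 to 116 CPM, n = 3) without overlap. The joint test had an adjusted p of 0.00169 as labelled and 3.48e-08 without the 2 libraries (edgeR), and then SD3 stood 2.68 ± 0.13 and SD6 1.56 ± 0.13 above SD2 on the log2 scale. In the larger run alone as labelled the joint test gave an adjusted p of 0.0141, and without both SD2 males 0.119 (edgeR), with SD3 2.54 ± 0.48 and SD6 1.95 ± 0.48 above SD2.

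TpnC73F marked SD3. In SD2 it was at 37.5, 20.0, 19.9 and 16.9 CPM, in the samples labelled SD3 at 78.6, 61.2, 78.6 and 21.5 CPM, and in those labelled SD6 at 37.7, 17.6, 21.8 and 76.7 CPM. As labelled the joint test did not pass (edgeR adjusted p = 0.253). With the 2 libraries left out SD3 lay above both other strains in every sample, 1.48 ± 0.14 above SD2 (edgeR adjusted p = 8.27e-06). SD6 then differed from SD2 by −0.08 ± 0.15. TpnC73F was itself among the genes that set these libraries apart, so this separation was in part fixed by leaving them out.

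The main troponin C isoform, TpnC25D, varied less by strain than TpnC47D and TpnC73F. TpnC25D stood at 1846, 1352, 894 and 1077 CPM in SD2, at 1339, 1233, 822 and 1099 CPM in samples labelled SD3 and at 1338, 1047, 959.7 and 1047 CPM in those labelled SD6. The strains overlapped and the joint test did not pass with or without the 2 libraries. TpnC41C had 41.6, 35.5, 25.2 and 24.1 CPM in SD2, 32.4, 25.2, 18.5 and 21.8 CPM under the SD3 label, and 31.95, 33.5, 19.7 and 23.5 CPM under the SD6 label. For TpnC41C, a minor isoform, the strains overlapped and the joint test did not pass as labelled in edgeR. Without the 2 libraries it was among the members that passed, and SD3 minus SD2 was −0.46 ± 0.09 (edgeR adjusted p = 0.00329). So the share of TpnC25D in troponin C was 92.3% ± 2.01 in SD2 (n = 4), 71.0% ± 8.38 in SD3 and 84.3% ± 1.86 in SD6 (n = 3 each, without the 2 libraries), and that of TpnC47D was 4.18% ± 1.79, 22.4% ± 7.36 and 12.1% ± 2.03.

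For the actins, Act57B had 7789, 6659.6, 3735 and 3631 CPM in SD2, with females above males. It had 7581, 7476, 6630.2 and 4685 CPM under the SD3 label and 7926, 5311, 5019 and 4877 CPM under the SD6 label, and the strains did not pass the joint test with or without the 2 libraries. Act87E had 2287, 1567, 1307 and 1032 CPM in SD2, 2105, 1729, 2275 and 994 CPM under the SD3 label, and 1391, 838, 1016 and 1849.9 CPM under the SD6 label. When the 2 libraries were left out all SD6 samples of Act87E lay below all SD3 samples, by −0.95 ± 0.14 (edgeR adjusted p = 0.00044), and SD6 minus SD2 was −0.66 ± 0.14. As labelled it did not pass (edgeR adjusted p = 0.657).

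Act88F had 2.09, 2.86, 2.94 and 3.20 CPM in SD2. It had 5.59, 5.36, 12.2 and 4.89 CPM under the SD3 label and 2.39, 4.03, 5.90 and 7.63 CPM under the SD6 label. All SD3 samples lay above all SD2 samples, by 1.57 ± 0.23 without the 2 libraries (edgeR adjusted p = 0.000291). As labelled the joint test of Act88F did not pass in edgeR, while DESeq2 called it by strain. Its level was low, at 31 to 102 reads per sample.

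**Figure D4:**
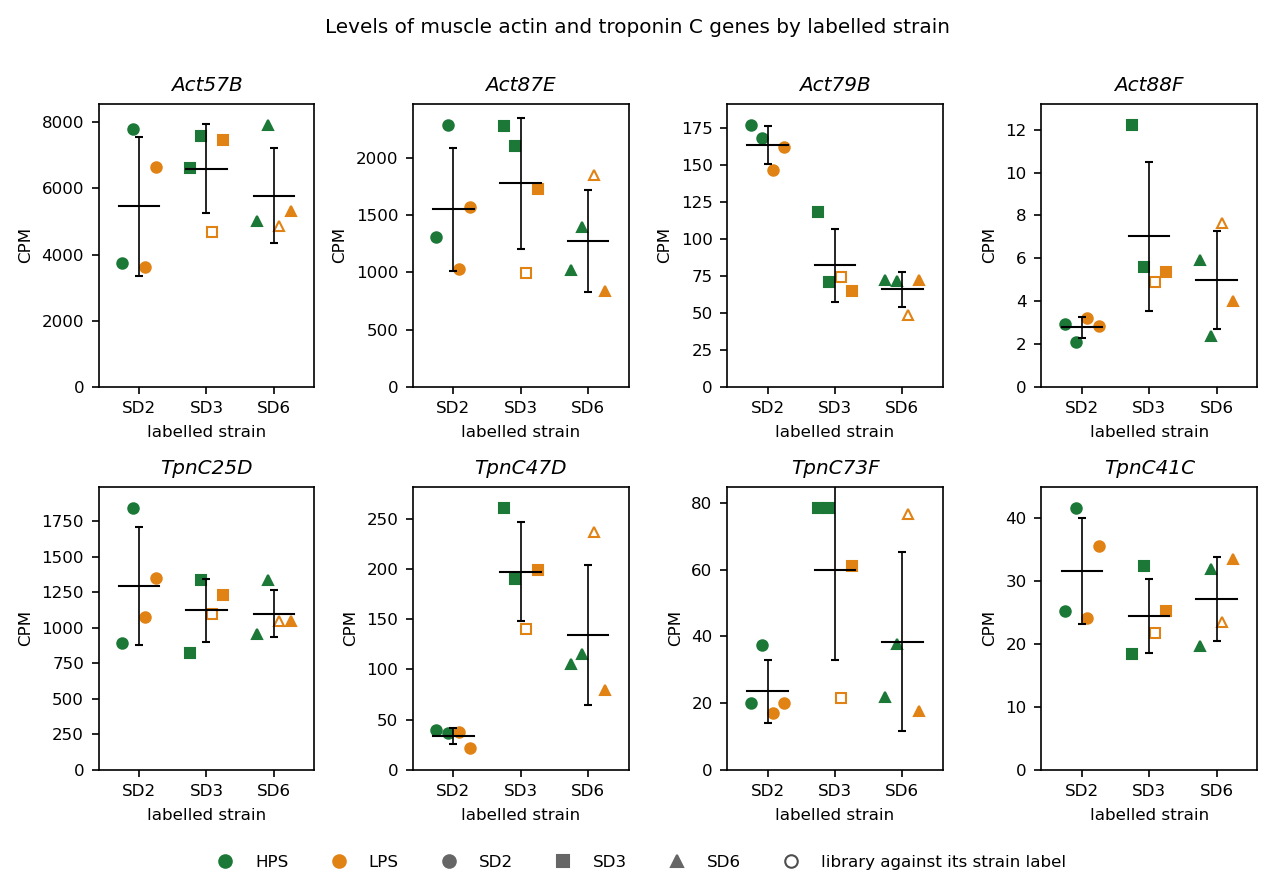
Levels in CPM (vertical axes, starting at 0) of the 4 muscle actin genes and 4 troponin C genes in the 4 samples of each labelled strain; colour gives the diet, shape the labelled strain, open symbols the 2 libraries that go against their label, and the black line and bar the mean ± SD. Act79B is highest in SD2 (147 to 178 CPM), TpnC47D is lowest there (22.2 to 39.5 CPM), and the open symbols of TpnC73F lie at 21.5 CPM among SD3 and 76.7 CPM among SD6.

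Among the other members, tmod and Zasp67 were higher and Zasp66 lower in SD6 than in SD3 when the 2 libraries were left out. The libraries were left out for going against these strain labels, so such separation follows in part from that choice. The Z disc gene Zasp67 stood at 9.74 to 12.6 CPM in SD6 (n = 3) against 3.36 to 5.85 CPM in SD3, 1.41 ± 0.26 higher on the log2 scale (edgeR adjusted p = 0.00225). The 2 libraries had 13.4 CPM under the SD3 label and 2.43 CPM under the SD6 label. For tmod SD6 ran from 2894 to 3534 CPM and SD3 from 1844 to 2168 CPM (0.70 ± 0.10, edgeR adjusted p = 0.000305). Zasp66 ran from 673 to 1227 CPM in SD6 and from 1256 to 1604 CPM in SD3 (−0.74 ± 0.11, edgeR adjusted p = 0.00049). In all 3 genes SD3 and SD6 did not overlap, with the share of all genes apart in this way not given here. SD2 overlapped with both SD3 and SD6 for Zasp67 (3.41 to 11.7 CPM) and Zasp66 (756 to 1538 CPM). For tmod SD2 lay between them, at 2197 to 2657 CPM. Msp300 was also higher in SD6, at 357 to 372 CPM against 246 to 301 CPM in SD3 (0.41 ± 0.11, edgeR adjusted p = 0.0148).

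The remaining members past the joint test without the 2 libraries, wupA, Actn, Unc-89, Mf and RyR, had smaller differences, of −0.27 to −0.49 between SD6 and SD3. Mhc, Mlc1, Mlc2, Prm, Tm1, Tm2, sls, bt, Mlp60A, Mlp84B, Zasp52, up, SERCA, Strn-Mlck and Mp20 did not pass by strain in that fit.

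By larval diet, muscle gene levels were mostly lower on LPS, by amounts that did not pass as labelled. In edgeR 0 of 32 members passed by diet, 8 had an unadjusted p below 0.05, and DESeq2 called 0; over all genes 10 of 10026 passed (0.0997%). The log2 fold change (LPS minus HPS) was negative in 28 of 32 members with a median of −0.16, while 47.0% of all genes were negative and their median was 0.01. Positive values were those of bt (0.11 ± 0.13), Zasp67 (0.32 ± 0.44), Msp300 (0.04 ± 0.13) and Act88F (0.02 ± 0.25). The lowest was Zasp66 at −0.40 ± 0.22. In 0 members did every HPS sample lie above every LPS sample (28 of all genes, 0.279%).

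Leaving out the 2 libraries gave 7 members, all lower on LPS, beside 147 of 10373 genes (1.42%), of which 114 (1.1%) were lower. Besides Act87E, TpnC73F, up and wupA they were Zasp66, Mp20 and Mf. In that fit the LPS males were the SD2 pool alone, so the male part of the diet values rested on that strain. Both sexes of a strain and diet came from the same vials and were fitted as separate samples. Zasp66 stood at 1538, 1566 and 1227 CPM in HPS females (SD2, SD3 and SD6) and at 929.7, 1256 and 673 CPM in LPS females. In males it was at 1092, 1604 and 824 CPM on HPS and at 756, 783 and 1455 CPM on LPS, the last pair of values from the 2 libraries of doubtful strain. Each LPS female was below the HPS female of her strain, though the diets overlapped across strains. The log2 fold change was −0.63 ± 0.09, or 1.55-fold lower on LPS (edgeR adjusted p = 0.0054), without the 2 libraries.

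Mp20, a calponin-like actin binder, had 1104, 1069.5 and 1268 CPM in HPS females and 626, 799.6 and 771 CPM in LPS females. All HPS females were above all LPS females. In males it had 799.6, 1035 and 881 CPM on HPS and 708, 813 and 978 CPM on LPS, with overlap. Without the 2 libraries its diet value was −0.52 ± 0.10 (edgeR adjusted p = 0.0235), and as labelled −0.39 ± 0.11 (edgeR adjusted p = 0.324). Mf, a thick filament protein, stood at 1551, 1591 and 1368 CPM in HPS females and 1194, 1307 and 1013 CPM in LPS females, and at −0.35 ± 0.08 without the 2 libraries (edgeR adjusted p = 0.0396). With the strain labels exchanged 0 members passed by diet (170 of all genes, 1.7%; 16 members had an unadjusted p below 0.05), and Zasp66 (−0.44 ± 0.11, edgeR adjusted p = 0.0603), Mf (−0.27 ± 0.07) and Mp20 (−0.39 ± 0.10) came nearest. Leaving out the library labelled male LPS SD6 alone gave 4: Act87E, wupA, Zasp66 and Mf. Without both SD2 males 0 members and 0 genes (0%) passed, 7 members had an unadjusted p below 0.05, and the median was −0.17.

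Within females 29 of 32 members were negative on LPS, with a median of −0.27, and LPS was below HPS in all 3 strains for 24 members (1729 of all 10026 genes, 17.2%). As labelled 0 members and 0 genes (0%) passed in edgeR, while 4 members had an unadjusted p below 0.05, and DESeq2 called Mp20 alone (−0.66 ± 0.12). With the 2 libraries, both male, left out, Mp20 (−0.66 ± 0.10), TpnC73F (−0.79 ± 0.15) and Zasp66 (−0.65 ± 0.12) passed in edgeR, beside 54 of 10373 genes (0.521%). In males the median was −0.10 with 19 of 32 negative, 0 passed in edgeR (2 at an unadjusted p below 0.05) and in DESeq2, and LPS was lower in all 3 strains for 7 members as labelled (1128 of all genes, 11.3%) and for 15 with the strain labels exchanged (1693 of all genes, 16.9%). For these fits within a sex, the shares of all genes negative or at an unadjusted p below 0.05 are not given here. Counts of negative members are therefore not set against a background. Of the isoforms, TpnC25D was lower on LPS in females of all 3 strains (−0.31 ± 0.13) and higher on LPS in males of all 3 (0.27 ± 0.13). The interaction of diet and sex passed for 0 members and 0 genes (0%); 4 members, among them TpnC25D (0.58 ± 0.18, edgeR adjusted p = 1) and Mp20 (0.53 ± 0.17), had an unadjusted p below 0.05, and DESeq2 called 0.

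Marker sums by diet overlapped in every list. The haemocyte markers ran from 66.7 to 134 CPM on HPS and from 100.0 to 155 CPM on LPS, the photoreceptor markers from 23074 to 31109 CPM and from 21364 to 26480 CPM, and none of their genes passed by diet in edgeR as labelled or with the 2 libraries left out. With the strain labels exchanged the haemocyte genes Hml (0.41 ± 0.08) and Ppn (0.37 ± 0.09) passed as higher on LPS, and DESeq2 called the rhodopsin gene ninaE as lower on LPS (−0.24 ± 0.07). The fat body gene Lsp2 (−1.14 ± 0.15) and Cpr49Ae (−0.44 ± 0.08) were lower on LPS with the 2 libraries left out. With the labels exchanged Lsp2 passed again (−1.09 ± 0.16), while the fat body gene apolpp passed as higher on LPS (0.66 ± 0.12). As labelled the other fat body genes apolpp (0.80 ± 0.38), Yp1 (0.36 ± 0.17) and FASN1 (0.04 ± 0.11) had positive diet values that did not pass. Of the other cuticle genes ple stood at −0.14 ± 0.21 and yellow at 0.53 ± 0.38. The part of these markers in the diet values of the members was not tested. The flight muscle markers summed to 2.39 to 12.8 CPM on HPS and 3.25 to 7.75 CPM on LPS.

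Further lists were not restricted to genes used only in muscle, as the cytoplasmic actins show, so their values are not those of muscle alone. In edgeR as labelled 0 of their genes passed by diet, sex or strain. The lists were filament and Z disc partners (16 tested), membrane and calcium partners (8), muscle energy enzymes (4), muscle differentiation factors (8), glutamate receptor subunits of the neuromuscular junction (4) and cytoplasmic actins (2). By sex 2, 1, 0, 1, 1 and 0 of them had an unadjusted p below 0.05 in edgeR, and DESeq2 called 2 of the filament and Z disc partners, cher, a filamin (−0.21 ± 0.07), and the ankyrin gene Ank2 (0.19 ± 0.06). Their median log2 values by sex were 0.01, 0.04, −0.13, 0.12, −0.15 and 0.06, beside −0.37 for the members, and in the same order by diet −0.08, 0.04, −0.03, 0.00, −0.10 and −0.13. When the 2 libraries were left out the glycerol-3-phosphate dehydrogenase gene Gpdh1 was lower in males (−0.24 ± 0.07, edgeR adjusted p = 0.0471) and sals, a regulator of thin filament length, was lower on LPS (−0.42 ± 0.06, edgeR adjusted p = 0.00655). DESeq2 on all samples (−0.40 ± 0.08) and edgeR with the strain labels exchanged (−0.39 ± 0.05) also called sals by diet, and DESeq2 called CAP (−0.24 ± 0.07). With the 2 libraries left out 13 of 44 tested genes of these lists (29.5%) passed by strain, below the 35.1% of all genes: GluRIIA, the integrin gene if, vinc, cpb, Chd64, Pax, CaMKII, Pglym78, Gpdh1, how, mbl, Act5C and Act42A.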

How the data were processed

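Head RNA of 12 pools was measured in 13 libraries. The authors deposited raw counts for each gene, with no normalization. The submitters' processing notes name the aligner TopHat2 2.1.0 and HTSeq 0.6.1p1, besides bcl2fastq 1.8 and CASAVA 1.8.2. The kit was stranded, per the labels' protocols. The deposited names mark uniquely mapped reads counted by strand. Genome build and annotation: not given in the sources used here. Symbols, exon lengths and chromosome arms came from the Ensembl annotation of BDGP6 through FlyBase identifiers, and 17155 of 17370 genes matched. Unc-89 was matched through RefSeq's synonym. Library sizes and tests leave out 96 spike-in entries and 5 summary entries, of which reads outside any gene came to 2.93% to 15.0% of a library. The 2 libraries of the second run, both of SD2 males, had 10.4% (HPS) and 15.0% (LPS), and the next highest had 4.96%. They also held the most spike-in reads, 66584 and 62598 against 24716 in the next library.

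The tests used edgeR 4.0.16 (R 4.3.3) with TMM scaling, filterByExpr over the 4 groups of diet and sex (minimum count 10) and the quasi-likelihood F-test, with diet, sex and strain fitted together over all genes, 7 residual degrees of freedom and Benjamini-Hochberg adjusted p below 0.05 over all genes tested. Diet within each sex and its interaction came from the 4 groups with strain. Values are log2 fold changes ± standard error, and levels are CPM on TMM-scaled library sizes. DESeq2 1.42.0 was an alternative. The fit was tested on simulated counts.

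The numbers 2, 3 and 6 in the titles are the strains, so same-numbered samples share an isofemale line and strain was the replicate block; the pairing comes from the labels. Without the block 5 members passed by sex, with the share of all genes not given here. P-values measure the spread between these pooled samples, from 1 set of vials per strain and diet.

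All 34 members are named, by rule; actins, troponin C genes and members past the threshold have their values. Members, lists and alternatives were chosen with earlier results of these data known, among them the doubt over the 2 libraries. Added after seeing the data were the alternative that leaves out SD2 males with exchanged strain labels and the one of the larger sequencing run alone. Of the further lists unc-45, Ca-beta and Stac had no matched entry and were not used here.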

Additional observations from a re-analysis of the deposited data

Results flagged for a closer look

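Of 224 groups of 4 or 6 samples (each tested member in each strain, sex and diet), 11 held a sample far from the others in the same group. Chance gives about 1 in 20, so this number is near what chance gives. Groups of a strain also mix the sexes and diets. Among the troponin C genes TpnC47D was low in female LPS SD2 heads (22.2 CPM within SD2) and TpnC73F high in female HPS SD2 heads (37.5 CPM within SD2). Among the actins Act57B was high in female HPS SD6 heads (7926 CPM within SD6), Act88F high in male HPS SD3 heads (12.2 CPM within SD3) and Act79B low in the library labelled male LPS SD6 (48.4 CPM within SD6).

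Actn was high in female HPS SD6 heads (882 CPM within SD6), and Msp300 was low in the library labelled male LPS SD6 (273 CPM within SD6). SERCA was low in the library labelled male LPS SD3 (3883 CPM within SD3), and tmod was low in male LPS SD2 heads (2197 CPM within SD2). Zasp52 was low in female LPS SD6 heads (280.4 CPM among females), and RyR was high in male HPS SD3 heads (189.8 CPM among males). Of these 11 values 3 came from the 2 libraries of doubtful strain.

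TpnC25D moved in opposite directions with diet in the sexes: every female pair was lower and every male pair higher on LPS. The difference of the log2 fold changes was 0.58, and edgeR's interaction test gave an adjusted p of 1 over all genes.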

How the results depend on the processing

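Where it was drawn up, the share of all genes passing follows a count in brackets. By sex 8 members passed as labelled (3.04%), 24 without the 2 libraries (7.72%) and 21 with strain labels exchanged (11.2%). In the larger sequencing run alone 3 passed (1.17%), and without SD2 males 0 (0.396%). DESeq2 gave 17, the fit with no replicate block 5, and leaving out 1 sample 5 to 22 (5.5% for the 22). Shares for DESeq2, no block and the other samples left out are not given here. Counts without a share cannot be compared with the others. By strain 2 passed as labelled (9.2%), 15 without the 2 libraries (35.1%) and 20 with labels exchanged (45.7%). Without SD2 males 0 passed (0.861%), and 18 did with labels exchanged as well (32.1%). With 1 sample left out 2 to 8 passed (5 without the library labelled male LPS SD3, 8 without that labelled male LPS SD6). By diet 0 passed as labelled (0.0997%), and 7 did without the 2 libraries (1.42%). With 1 sample left out 0 to 4 did, the 4 without the library labelled male LPS SD6. By diet in females 0 passed as labelled (0%) and 3 without the 2 libraries (0.521%). DESeq2, labels exchanged, and labels exchanged without SD2 males gave 1 each. Mhc, Prm and TpnC41C passed by sex under all alternatives but the one without SD2 males, and bt and Mlp84B under all but that one and the larger run alone. The fit of strain itself has no replicate block to leave out. Why the counts moved was not tested.

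Of the single genes, signs by sex turned where values lay near 0. Act87E went from −0.18 to 0.087 without SD2 males and 0.0022 with labels exchanged as well, Zasp66 from −0.11 to 0.043 without SD2 males, and TpnC73F from −0.08 to 0.19 without SD2 males, 0.0086 in the larger run alone and, with 1 sample left out, between −0.64 and 0.13. Act79B went from 0.05 to between −0.056 and 0.14 with 1 sample left out, and tmod from 0.02 to −0.061 without the 2 libraries, −0.0070 with labels exchanged, and between −0.16 and 0.13 with 1 sample left out. Under DESeq2 size factors, no filter and either male LPS SD2 library alone no sign turned. Act88F, Zasp67, fln and TpnC4 are limited by depth.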
